A study of Homo sapiens with 6 samples.

Results

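The early growth response (EGR) family and its NAB corepressors were followed in the leukemia line SEM, with and without forced EGR3. The genes were chosen by name: the 4 family members EGR1, EGR2, EGR3 and EGR4 and the 2 corepressors NAB1 and NAB2, which are 6 of the 35410 genes in the count table. SEM is a line from a B cell precursor leukemia with the KMT2A::AFF1 fusion, and the labels describe its cells as proB cells. SEM::EGR3 carries a doxycycline-inducible EGR3 transgene and SEM::mock carries the empty vector, and both lines received 1 µg/mL doxycycline for 48 h before RNA was taken, so the controls share the drug as well as the vector. RNA was measured by MACE-Seq, which sequences the 3′ ends of polyadenylated transcripts, in 3 libraries of each line that the labels call biological replicates. Whether a line is 1 clone or a mixed population, and how the cultures of its replicates were kept apart, is not given in the sources used here.

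EGR proteins are zinc finger transcription factors that bind a GC-rich site. They are immediate early genes: growth factor, antigen receptor or stress signals pass through the MAP kinase cascade to serum response factor and its ETS partners, and EGR transcripts appear within minutes. NAB1 and NAB2 bind the EGR1, EGR2 and EGR3 proteins, recruit the NuRD chromatin remodelling complex and repress EGR target genes. NAB2 is itself an EGR target, so that the pair is known as a negative feedback loop. In lymphocytes, EGR1 and EGR3 are known from antigen receptor signaling and from the early steps of B and T cell development.

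Depth was 5286115 to 6181388 counts per SEM::mock library and 7293092 to 15106018 per SEM::EGR3 library. Before any EGR gene was read, the label was checked against marker genes. The transcripts of 11 B-lineage genes summed to 2.64 to 5.86 CPM (counts scaled to library size) in the SEM::mock libraries and to 514 to 543 CPM in the SEM::EGR3 libraries. EBF1, BLK and DNTT had no count in any SEM::mock library, and 8 of the 11 genes stayed at 3 counts or fewer in each of them. DNTT stayed at 3 counts or fewer in each SEM::EGR3 library too. Of 10 genes of the KMT2A fusion programme, HOXA7 was at 0 and 4 in all stayed at 3 counts or fewer in each SEM::mock library, while the summed level of 500.3 to 526 CPM there came mostly from the galectin gene LGALS1. That sum was 1278 to 1293 CPM in SEM::EGR3. Erythroid and megakaryocyte genes, among them GATA1 and the globins, summed to 4972 to 5273 CPM in SEM::mock and to 6182 to 6432 CPM in SEM::EGR3. Myeloid genes summed to 291 to 302 CPM against 222 to 224 CPM, with 2 of 5 tested genes higher, among them CEBPA at 12.4 ± 0.762 against 126 ± 1.21 CPM, and 2 lower, LYZ and CD33. T and NK genes summed to 65.3 to 70.3 CPM against 16.1 to 18.3 CPM, of which CD3D made up most in SEM::mock, with 3 of 5 tested genes lower and 2 higher, CD4 and CD2. The 3 neighbours MTAP, CDKN2A and CDKN2B summed to 0 to 0.195 CPM against 173 to 176 CPM. The libraries labelled SEM::mock therefore lacked the defining transcripts of a proB line, the libraries of both lines held erythroid transcripts, and the effect of EGR3 cannot be told apart from this difference between the lines in any value below. In bulk RNA, fewer cells of a type and less RNA per cell cannot be told apart either.

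**Figure D1:**
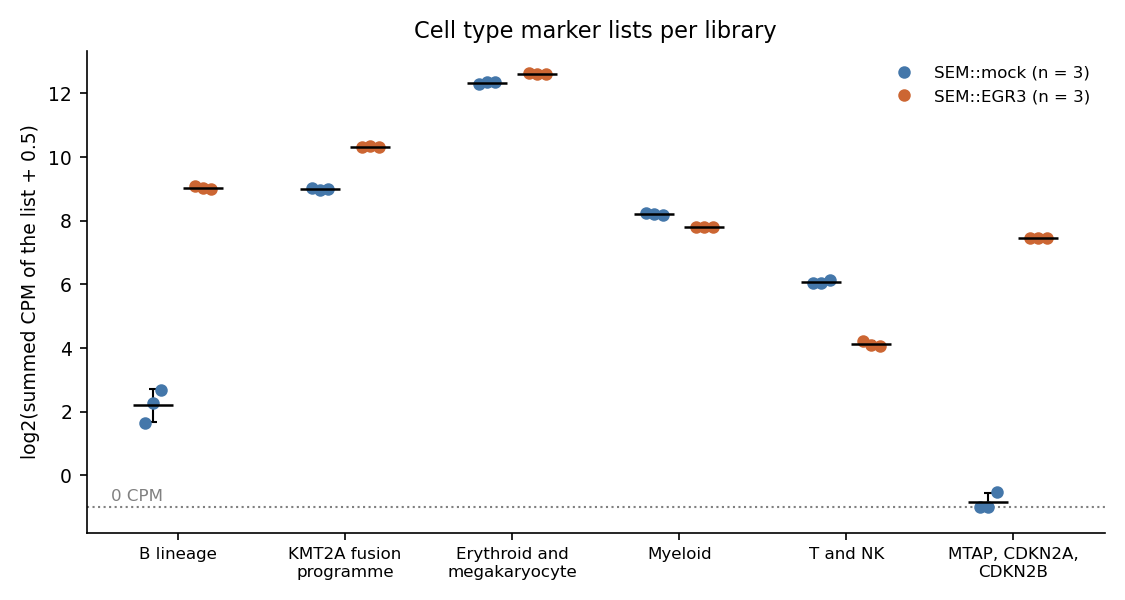
Summed level of each marker list per library, as log2(CPM + 0.5), for the 3 SEM::mock and 3 SEM::EGR3 libraries, with the mean as a line and the SD as a bar. The B-lineage sum lay between 2.64 and 5.86 CPM in SEM::mock and between 514 and 543 CPM in SEM::EGR3, while the erythroid and megakaryocyte sum was at least 4972 CPM in every library.

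The start sites of the members were read for 4 binding motifs, because the family binds its own promoters and those of its corepressors. The RefSeq windows used here hold 300 bases of GRCh38.p14, from 250 before to 50 after a transcript start, and 5 of the 6 members have at least 1 window. Matches were sought on both strands for 2 spellings of the EGR site, GCGTGGGCG and GCGGGGGCG, for the cyclic AMP response element TGACGTCA and for the CArG box, which serum response factor binds. Of all 35116 windows, 0.795% held the first spelling, 5.07% the second, 1.85% the cyclic AMP response element and 1.29% the CArG box. The windows of EGR1, NAB1 and NAB2 are printed because these genes are the most abundant members beside EGR3 and went in 3 different ways. Every match is in capitals.
EGR1 window, chr5:138465229-138465528, plus strand: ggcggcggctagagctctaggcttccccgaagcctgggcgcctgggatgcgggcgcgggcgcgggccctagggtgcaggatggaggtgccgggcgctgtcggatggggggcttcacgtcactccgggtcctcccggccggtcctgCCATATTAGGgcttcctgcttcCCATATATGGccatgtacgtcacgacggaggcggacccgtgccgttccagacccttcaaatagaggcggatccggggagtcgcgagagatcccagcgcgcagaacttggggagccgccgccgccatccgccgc
NAB1 window, chr2:190648645-190648944, plus strand: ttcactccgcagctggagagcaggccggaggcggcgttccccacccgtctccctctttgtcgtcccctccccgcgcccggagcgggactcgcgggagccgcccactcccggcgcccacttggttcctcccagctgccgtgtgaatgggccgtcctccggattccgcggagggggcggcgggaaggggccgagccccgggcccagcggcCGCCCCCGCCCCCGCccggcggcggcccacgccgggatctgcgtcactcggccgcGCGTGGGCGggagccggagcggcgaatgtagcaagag
NAB2 window, chr12:57088864-57089163, plus strand: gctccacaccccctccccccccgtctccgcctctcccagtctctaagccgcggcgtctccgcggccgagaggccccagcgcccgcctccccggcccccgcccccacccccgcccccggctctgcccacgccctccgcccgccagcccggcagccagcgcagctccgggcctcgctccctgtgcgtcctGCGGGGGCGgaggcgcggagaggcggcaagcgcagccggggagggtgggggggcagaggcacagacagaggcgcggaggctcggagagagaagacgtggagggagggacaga

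The EGR1 window held a pair of CArG boxes that began 105 and 83 bases before the start, and neither EGR spelling. NAB1 has 3 windows, and the first, printed above, held the first EGR spelling 13 bases after its start and the second spelling at 42 and 36 bases before it, both on the reverse strand and overlapping each other. The second NAB1 window overlaps the first and held the same matches at 175, 230 and 224 bases before its own start, and the third held none. The NAB2 window held the second spelling once, 62 bases before the start. One of the 3 EGR2 windows, at chr10:62816317-62816616 on the minus strand, held a CArG box 71 bases before its start, and the EGR4 window held none of the motifs. The cyclic AMP response element was not found in any window of a member. A letter match is a description and not a measured binding site.

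Of the 6 members, 5 had enough counts to be tested, and 3 of these were higher, 1 was lower and 1 did not pass the test in SEM::EGR3 (edgeR quasi-likelihood test, Benjamini-Hochberg adjusted p below 0.05). The background against which this is read is high: 68.5% of the 15465 tested genes passed, 36.5% higher and 32% lower, and the median log2 fold change over all of them was 0.03. A pass by itself is therefore common in this comparison, and so is a lack of overlap between the lines. It was found for 70.1% of the tested genes over the 6 libraries. Of the tested genes, 13.6% had a larger absolute log2 fold change than NAB2, 12.2% than EGR2 and 7.74% than EGR1. For EGR3 this share was 0.821% and for NAB1 97.5%. EGR2 and EGR3 were low in SEM::mock and passed the filter on low counts through SEM::EGR3, so their rises are built into the 3 higher members. MACE-Seq yields 1 tag per transcript end, so that levels of different members are compared below in CPM without a division by length.

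**Figure D2:**
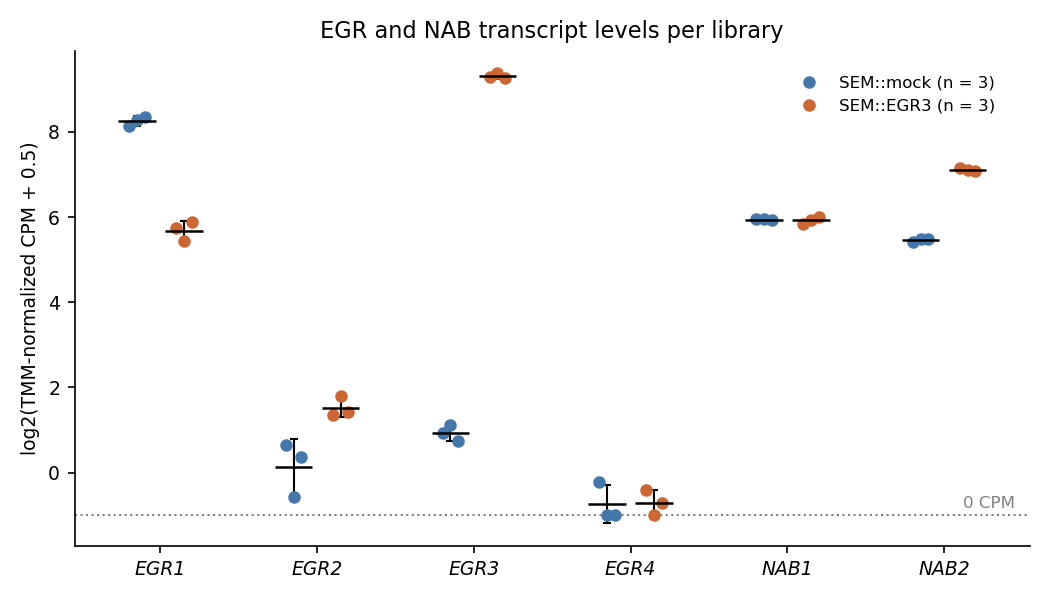
Level of each member in every library, as log2(TMM-normalized CPM + 0.5), for SEM::mock and SEM::EGR3 with 3 libraries each; lines are means, bars are SDs and the dotted line is 0 CPM. EGR1 and EGR3 exchanged the leading place in the family, NAB2 was higher in all SEM::EGR3 libraries, and the NAB1 points of both lines overlap.

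EGR3, the overexpressed factor, was read first as a check of the labels (chromosome 8, 22687659 to 22693302, minus strand, GRCh38). Replicates 1 to 3 of SEM::mock held 8, 10 and 6 EGR3 counts, and those of SEM::EGR3 held 9768, 4952 and 5557. These are 1.41, 1.67 and 1.17 CPM against 627, 664 and 612 CPM. Every SEM::EGR3 library thus lay far above every SEM::mock library, and the labels hold for the level of EGR3 transcripts. The mean rose from 1.42 ± 0.248 to 634 ± 27.0 CPM (SD, n = 3 per line), a log2 fold change of 8.78 with an SE of 0.11 (95% interval 8.55 to 9.003, edgeR adjusted p = 1.28e-26). In the order of levels over all genes of the table, EGR3 moved from place 14135 to place 178. The counts do not separate transcripts of the vector from those of the chromosomal gene, so the response of the endogenous EGR3 locus was not measured. AC055854.1, a transcript on the other strand that overlaps 3153 bases of EGR3, had no count in any SEM::EGR3 library.

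EGR1, the family member that responds to the widest range of growth signals, fell (chromosome 5, 138465490 to 138469315, plus strand). Its level was 279, 312 and 325 CPM in the SEM::mock libraries and 52.7, 42.9 and 58.3 CPM in the SEM::EGR3 libraries. All 3 SEM::EGR3 libraries lay below all 3 SEM::mock libraries, with a gap wider than the range within either line. The mean went from 305 ± 23.6 to 51.3 ± 7.79 CPM, a log2 fold change of -2.56 with an SE of 0.08 (95% interval -2.72 to -2.40, edgeR adjusted p = 2.77e-19). Over the alternatives tried, the log2 fold change stayed between -2.65 and -2.46. EGR1 moved from place 488 to place 3996 in the order of levels. The nearest tested gene beside it, the ribosomal protein pseudogene RPL7P19, gave a log2 fold change of 0.47 and did not pass the test (edgeR adjusted p = 0.186).

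EGR2, known for myelination and for the restraint of T cells, was low in both lines (chromosome 10, 62811996 to 62919900, minus strand). SEM::mock replicates gave 6, 1 and 4 counts of it, whereas SEM::EGR3 replicates gave 32, 22 and 20. Read as CPM, these are 1.06, 0.167 and 0.781 against 2.06, 2.95 and 2.20. The lines did not overlap, although 1 SEM::mock library had a single count. EGR2 passed the filter on low counts through its SEM::EGR3 libraries, so with these SEM::mock counts only a rise could be called. The mean rose from 0.668 ± 0.455 to 2.40 ± 0.481 CPM, a log2 fold change of 1.80 with an SE of 0.42 (95% interval 0.93 to 2.66, edgeR adjusted p = 0.000536). Leaving out single libraries gave values from 1.30 to 2.31, and the weakest of these, without SEM::mock replicate 2, had an edgeR adjusted p of 0.0126. The nearest annotated gene, ADO, a thiol dioxygenase gene, rose by 0.49 on the log2 scale (edgeR adjusted p = 1.70e-05).

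EGR4, best known from neurons and the testis, was barely detected (chromosome 2, 73290929 to 73293705, minus strand). Its counts were 2, 0 and 0 without the transgene and 4, 0 and 1 with it. It did not pass the filter on low counts, and at this depth no fold change is given. A count of 0 allows up to 3 counts, which is 0.193 to 0.586 CPM depending on the library.

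The order of levels within the EGR family was therefore EGR1, EGR3, EGR2 and EGR4 in SEM::mock and EGR3, EGR1, EGR2 and EGR4 in SEM::EGR3. In SEM::mock, EGR3 at 1.17 to 1.67 CPM and EGR2 at 0.167 to 1.06 CPM were neighbours separated by few counts. EGR1 made up 99.0% to 99.4% of all EGR counts of a SEM::mock library and 6.04% to 8.68% of those of a SEM::EGR3 library, where EGR3 took 91.0% to 93.5%. EGR2 and EGR4 together did not reach 1% in any library. Summed over the 4 genes, EGR transcripts went from 308 ± 23.1 CPM in SEM::mock to 688 ± 19.6 CPM in SEM::EGR3. The family as a whole was thus higher by a smaller factor than EGR3 alone, with the fall of EGR1 included in the sum.

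NAB2, the corepressor that EGR factors are known to induce, rose (chromosome 12, 57088894 to 57095476, plus strand). Counts were 240, 264 and 227 for the SEM::mock replicates and 2196, 1024 and 1231 for the SEM::EGR3 replicates, which are 42.2, 44.0 and 44.3 CPM against 141, 137 and 135 CPM. The lines were far apart and the libraries of a line were close together. The mean went from 43.5 ± 1.14 to 138 ± 2.83 CPM, a 3.17-fold difference or 1.67 on the log2 scale with an SE of 0.06 (95% interval 1.53 to 1.80, edgeR adjusted p = 3.40e-17). Over the alternatives the log2 value ranged from 1.63 to 1.76.

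NAB1, the other corepressor, is expressed more constantly across tissues (chromosome 2, 190646746 to 190692766, plus strand). Its level was 61.4, 61.1 and 60.3 CPM in SEM::mock and 57.0, 60.9 and 63.5 CPM in SEM::EGR3. The lines overlapped. The mean was 60.9 ± 0.544 CPM against 60.5 ± 3.29 CPM, a log2 difference of -0.02 with an SE of 0.07 (edgeR adjusted p = 0.825). The 95% interval of -0.16 to 0.12 leaves out a change of the size seen for NAB2 in either direction. The sign of this small difference turned under some scalings, and NAB1 did not pass the test in any alternative. AC006460.2 is a long noncoding RNA on the opposite strand that shares the promoter region of NAB1 and overlaps 3095 of its bases. It rose by 1.91 on the log2 scale (SE 0.33, edgeR adjusted p = 1.60e-05) from a low level of 1.30 ± 0.568 CPM. With 4, 11 and 7 SEM::mock counts, AC006460.2 passed the filter on low counts through SEM::EGR3, so only a rise could be called. The strand setting of the counting is not given in the sources used here, so that reads of NAB1 and of its antisense transcripts cannot be told apart.

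**Figure D3:**
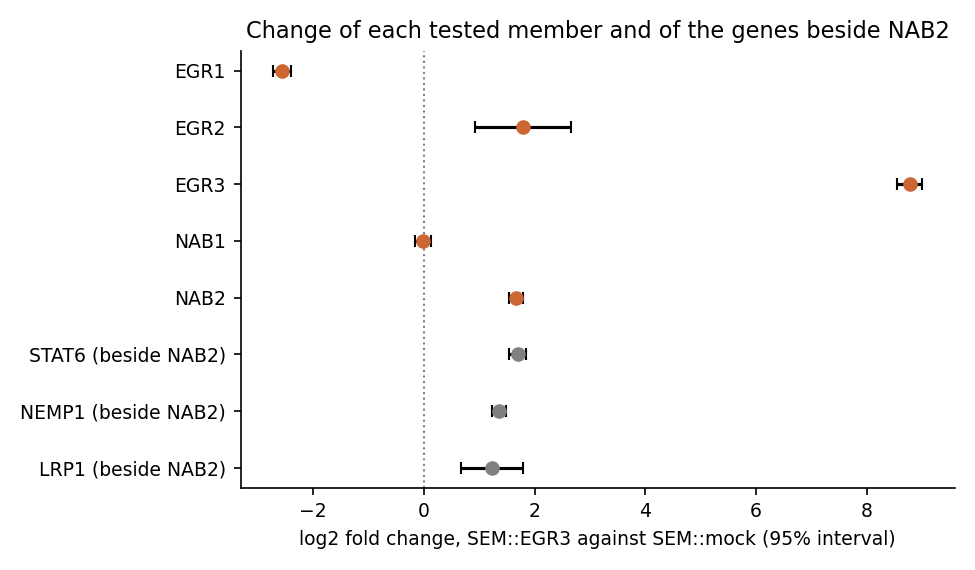
Log2 fold change of SEM::EGR3 against SEM::mock with its 95% interval from edgeR for the 5 tested members (orange) and for the 3 genes beside NAB2 (grey). EGR1 lies left of 0 at -2.56, the NAB1 interval covers 0, and STAT6 at 1.69 sits level with NAB2 at 1.67.

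The genes around NAB2 rose as well. STAT6, the transcription factor of interleukin-4 signaling, runs towards NAB2 from the opposite strand (57095408 to 57132139) and shares its last 69 bases with the 3′ end of NAB2. It stood at 63.2, 51.0 and 63.5 CPM in the SEM::mock libraries and at 191, 199.6 and 183 CPM in those of SEM::EGR3. STAT6 thus rose by 1.69 with an SE of 0.07 on the log2 scale (edgeR adjusted p = 1.67e-16). NEMP1, an inner nuclear membrane protein gene that starts 831 bases away on the opposite strand, went from 55.1 ± 0.801 to 140.6 ± 4.94 CPM, a log2 fold change of 1.35 with an SE of 0.06 (edgeR adjusted p = 1.22e-15). LRP1, an endocytic receptor gene 33017 bases beyond the 3′ end, rose by 1.23 with an SE of 0.27 on the log2 scale, from 1.91 ± 0.666 CPM. All 3 neighbours were thus higher in SEM::EGR3 together with NAB2. LRP1, with 15, 8 and 9 SEM::mock counts, passed the filter on low counts through SEM::EGR3. Its rise is therefore built into the 3 higher neighbours. As MACE-Seq reads transcript ends and the strand setting is not given, reads in the 69 shared bases could be counted for either gene, and how many lie there was not tested.

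The balance between members was then read within each library, where no normalization between libraries is needed. The ratio of NAB2 to NAB1 counts was 0.688, 0.721 and 0.735 in SEM::mock and 2.48, 2.26 and 2.13 in SEM::EGR3, so that NAB1 led in all SEM::mock libraries and NAB2 in all SEM::EGR3 libraries. On the log2 scale the ratio went from -0.49 ± 0.05 to 1.19 ± 0.11, a difference of 1.68. In an exact two-sided permutation test its p was 0.1, which is the smallest that 3 libraries against 3 can give. NAB2 made up 41.7% ± 0.828 of the NAB counts in SEM::mock and 69.5% ± 1.59 in SEM::EGR3. The summed level of both corepressors went from 104 ± 0.742 to 198 ± 0.503 CPM.

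The number of EGR3 transcripts per NAB transcript was 0.0136, 0.0159 and 0.0112 in the SEM::mock libraries and 3.17, 3.35 and 3.07 in the SEM::EGR3 libraries. EGR3 transcripts thus outnumbered the sum of both corepressors in every SEM::EGR3 library and in none of SEM::mock. The log2 ratio differed by 7.90 (exact permutation p = 0.1, the smallest possible). As EGR3 was the forced gene, the separation of this ratio was set by the design, and the permutation test adds no evidence. A further pair of ratios, chosen after the values were seen, describe the same libraries. EGR1 transcripts per NAB transcript were 2.69, 2.97 and 3.11 in SEM::mock and 0.266, 0.217 and 0.293 in SEM::EGR3, a log2 difference of -3.51 (exact permutation p = 0.1). The ratio of NAB2 to STAT6 was 0.669, 0.863 and 0.698 against 0.740, 0.688 and 0.738, ranges that overlap, with a log2 difference of -0.03 (exact permutation p = 0.9). These ratios are of transcripts and say nothing of the protein amounts.

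**Figure D4:**
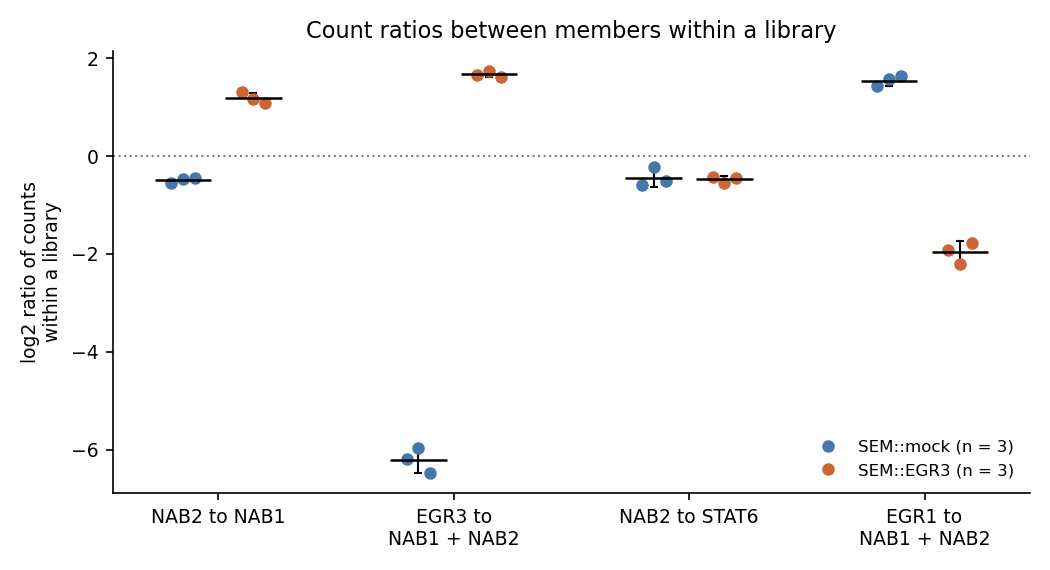
Log2 ratio of counts between members within each library, with line means and SDs, for 3 SEM::mock and 3 SEM::EGR3 libraries; 0 marks equal counts. NAB2 to NAB1 moved from -0.49 to 1.19 and EGR1 to both NABs from 1.54 to -1.96, while the NAB2 to STAT6 points of both lines overlap.

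Genes upstream of the family were counted next. Of 15 inducers of EGR transcription, all tested, 6 were higher and 5 lower, shares near the 36.5% and 32% of all tested genes, and the list median was 0.03, as over all tested genes. The kinase RPS6KA3 rose by 0.73 and the ETS partner of serum response factor ELK4 by 0.68 on the log2 scale. ELK3, an ETS factor of the same subfamily, went down from 20.1 ± 1.10 to 4.90 ± 0.848 CPM, a log2 fold change of -1.99 with an SE of 0.14. MAP2K1, a kinase of the cascade that activates ELK factors, had a log2 fold change of -0.71. Serum response factor itself, SRF, was 51.1 ± 1.54 CPM against 60.4 ± 2.98 CPM (log2 fold change 0.24, edgeR adjusted p = 0.00502). Only 3 of the 5 falls passed under several of the alternatives.

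Immediate early genes that respond to the same signals as EGR1 were read next to it. Of 11, 10 were tested, 7 were lower, 0 were higher, and the median log2 fold change was -0.40. The count of higher genes was also 0 at an unadjusted edgeR p below 0.05 and with DESeq2, and was 1 with the authors' library totals. The apoptosis regulator IER3 went from 111 ± 1.55 to 33.0 ± 4.19 CPM (log2 fold change -1.77), the secreted matricellular factor CCN1 had a log2 fold change of -1.42 and the nuclear receptor NR4A1 one of -1.21. ZFP36, KLF6 and NR4A2 gave log2 differences of 0.11, 0.13 and 0.51 and did not pass the test. With 7 of 10 tested genes lower, the share is above the 32% of all tested genes. However, the list was chosen with earlier results known and no list test was made. It does not hold all early genes: ARC, at a log2 fold change of 5.38, and the AP-1 subunit gene FOSL1, at -2.55, are described below.

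**Figure D5:**
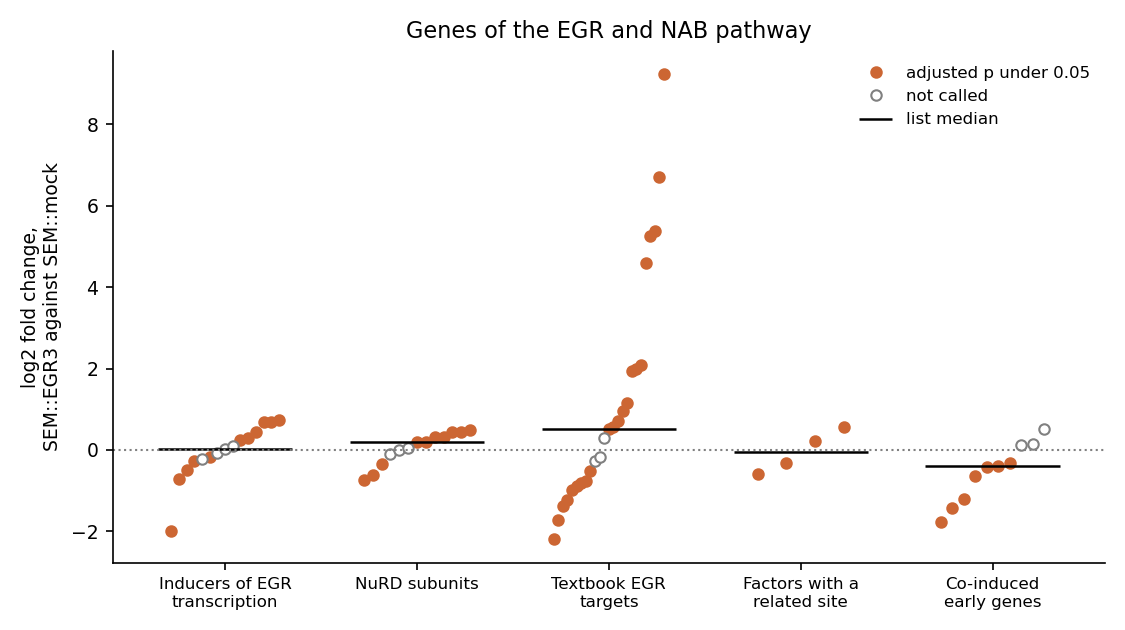
Log2 fold change of SEM::EGR3 against SEM::mock for each tested gene of 5 pathway lists, filled where the edgeR adjusted p was below 0.05, with the list median as a line. The co-induced early genes hold 7 falls and no rise that passed, while the textbook targets spread furthest, and the highest points there are fitted values against SEM::mock counts of 3 or fewer.

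The corepressors act through NuRD, and its subunits changed little in size. All 13 were tested, 7 were higher and 3 lower, beside 36.5% and 32% of all tested genes, with a median log2 fold change of 0.19. The higher subunits numbered 5 to 8 over the alternatives. The histone binding subunit RBBP7 rose by 0.48, the remodelling ATPase CHD4, which NAB proteins contact, by 0.45 and GATAD2B by 0.43. MTA3, a subunit known from B cells, had a log2 fold change of -0.73, the deacetylase HDAC1 one of -0.61 and GATAD2A one of -0.35. The ATPase CHD3 and the histone binding subunit RBBP4 did not pass, at -0.09 and -0.01.

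Textbook EGR targets were followed as the output of the family. Of 30 genes, 29 were in the table and 25 were tested, with 13 higher, 9 lower and a median log2 fold change of 0.52 against 0.03 for all tested genes, of which 36.5% were higher and 32% lower. With at least 10 counts in every library, 8 were higher and 8 lower. TNF, MBP, ARC, FASLG and PDGFB had 0 to 5 counts per SEM::mock library and passed the filter on low counts through SEM::EGR3. Their rises are therefore built into the count of 13 and into the median of 0.52, which was not recomputed without them. The cytokine gene TNF was not counted in any SEM::mock library and reached 113, 75 and 103 counts with EGR3, at least 17.8-fold higher against a floor of 3 counts per library. MBP, a myelin protein gene, was at least 26.0-fold higher by the same rule. ARC, a synaptic immediate early gene that EGR3 is known to regulate, went from 0.495 ± 0.424 to 20.7 ± 1.49 CPM, a log2 fold change of 5.38 with an SE of 0.27. The growth factor PDGFB, at 4.59, the death ligand FASLG, at least 5.28-fold higher, and the inhibitor of E proteins ID3, at 1.94, were chosen after their values were seen.

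Among the targets that fell, the adhesion molecule ICAM1 went from 33.6 ± 2.63 to 7.35 ± 0.266 CPM (log2 fold change -2.20, SE 0.11), the matrix protein THBS1 had a log2 fold change of -1.72 and the myelin gene PMP22 one of -1.37. CD44, which EGR1 is known to activate, stood at -1.23 and TGFB1 at -0.98. These genes are regulated by many other factors, and the parts of EGR3, of EGR1 and of the difference between the lines cannot be told apart.

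Factors that bind a site related to that of EGR were few. Of 5, 4 were tested and all 4 passed, where 68.5% of all tested genes did: SP1 rose by 0.57 and SP3 by 0.23 on the log2 scale, while WT1, whose zinc fingers resemble those of EGR1, had a log2 fold change of -0.59 and KLF16 one of -0.33. SP3 lost its call without SEM::mock replicate 3 (log2 fold change 0.16, edgeR adjusted p = 0.0784). SP8 stayed at the detection limit.

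Finally, the genes whose pattern lay closest to each member were sought among all tested genes, by the root mean square difference of mean-centred log2(CPM + 0.5) over the 6 libraries. EGR1 lay closest to the AP-1 subunit gene FOSL1 (0.105), the surface antigen gene CD24 (0.120) and the small GTPase gene DIRAS3 (0.128), which had log2 fold changes of -2.55, -2.61 and -2.40. For EGR3 they were IGHM (0.110), CDKN2A (0.133) and EBF1 (0.225), an immunoglobulin chain, a cell cycle inhibitor and a B-lineage factor, all 3 without a count in SEM::mock. The measure for these genes is set by the added 0.5 CPM, so their closeness to EGR3 says nothing of an equal fold change.

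NAB2 lay closest to ACACB (0.0480), a fatty acid enzyme gene with 1 count in each SEM::mock library, to the plexin gene PLXNB2 (0.0490) and to the stress cytokine gene GDF15 (0.0491). The fitted log2 fold changes of PLXNB2 and GDF15 were 1.68 and 1.67, but that of ACACB was 3.13, and its first place also comes from the added 0.5 CPM. In all, 50 genes lay within 0.1 of it. The nearest to EGR2 were WFIKKN1 (0.121), AC100858.2 (0.134) and AL445231.1 (0.136), all at a few counts per library. NAB1, which moved least, had 1342 genes within 0.1, the nearest being RER1 (0.0226), ACYP2 (0.0275) and LAMTOR2 (0.0301). With 6 libraries of 2 lines such likeness mainly restates the difference between lines, and it is given as a description.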

How the data were processed

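Polyadenylated RNA of 3 SEM::mock and 3 SEM::EGR3 libraries was sequenced by MACE-Seq. Deposited were whole-number counts for each gene, CPM values under the name TPM (counts scaled to a library total, without length correction) and counts divided by size factors, a signal scale not used here. The log2 fold changes and p-values deposited by the authors belong to their own comparison and were not used. The submitters' processing notes name bcl2fastq, Bowtie2, HTSeq and GRCh38. Annotation, strand setting, treatment of multiple matches and of molecular identifiers are not given in the sources used here. Floors cover counting error only, while the intervals of fold changes include the spread between libraries. The column headings spell the gene ERG3 and were read as the EGR3 line, since the titles name no other. Listed genes held 73.6% to 75.8% of the authors' library totals, and the number of per-sample columns that could not be assigned to a sample was 0.

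Counts were tested with edgeR 4.0.16 in R 4.3.3 (filterByExpr, TMM, glmQLFit and glmQLFTest, group as the only term), with Benjamini-Hochberg adjustment over 15465 genes. The procedure was tested on simulated data. Levels are TMM-normalized CPM, given as mean ± SD, and the confidence level is 95%. Ratios within a library were compared by exact two-sided permutation over 20 assignments. A line's level was called at the detection limit where none of its libraries exceeded 3 counts. Alternatives were DESeq2 1.42.0, other scalings and count filters, a stricter threshold of 0.01, a replicate block and leaving out each library. P-values set the difference between the lines against the spread between libraries of the same line. They do not cover variation between independently made lines.

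Besides the members, the text names the 3 largest rises and falls of each pathway list (adjusted p below 0.05, at least 20 counts on average in the higher line), the annotated genes beside or overlapping a member, and the 3 genes closest in pattern. Some genes that this rule names are not reported here. Other list members are named as examples chosen after their values were seen. The members and lists were chosen with earlier results of these data known, and the lists come from textbook knowledge. Gene positions are from GENCODE 29 (GRCh38), and promoter windows are from RefSeq (GRCh38.p14).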

Additional observations from a re-analysis of the deposited data

How the results depend on the processing

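EGR1, EGR2, EGR3 and NAB2 kept their direction and their call under every alternative in which they were tested, save that EGR2 without SEM::mock replicate 2 passes at 0.05 but not at 0.01 (edgeR adjusted p = 0.0126). EGR2 and EGR3 could not be tested with at least 10 counts in every library, since their SEM::mock counts are lower. In the main setting both passed the filter on low counts through SEM::EGR3, so only a rise could be called there. The kept calls of EGR2 and EGR3 therefore carry little. Depth limits EGR2 and EGR4, with 0 to 6 counts per SEM::mock library.

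NAB1 changed sign without passing the test: its log2 difference was 0.058 without normalization factors, 0.072 with the authors' library totals, 0.032 with at least 10 counts in every library and -0.053 to 0.035 when single libraries were left out. Its closest genes did the same. RER1 gave 0.059, 0.074 and 0.034 under those 3 settings and -0.048 to 0.021 on leaving out libraries, ACYP2 gave 0.062, 0.075 and 0.036, 0.00085 with upper-quartile normalization and -0.053 to 0.040, and LAMTOR2 gave -0.017 to 0.029 on leaving out libraries. The median over all tested genes was 0.03, and was 0.11 without normalization factors, 0.12 with the authors' library totals and -0.00055 with at least 10 counts in every library.

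The 5 lower inducers became 3 at an adjusted p below 0.01, without normalization factors, with the authors' library totals and with DESeq2, and ranged from 3 to 5 on leaving out libraries, with 3 without SEM::EGR3 replicate 1. The higher textbook targets became 8 with at least 10 counts in every library, where fewer genes are tested. The higher factors with a related site ranged from 1 to 2 on leaving out libraries, with 1 without SEM::mock replicate 3, and the higher early genes became 1 with the authors' library totals. FBXO41, beside EGR4, had a log2 fold change of 0.25 (edgeR adjusted p = 0.0439) and lost its call in several alternatives. The cause of these changes was not tested. The ratio of NAB2 to NAB1 stayed between 1.62 and 1.73 on the log2 scale, and that of EGR3 to both NABs between 7.77 and 8.02.

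Same-numbered libraries did not deviate together (correlations of deviations from the line means over 12801 genes of -0.17, -0.14 and -0.06), and no library correlated best with its own number, so the numbers were not taken as pairs. With a replicate block, 5388 genes were higher and 4694 lower against 5638 and 4955 without it. EGR1, EGR2, EGR3 and NAB2 kept their calls, with the limit of the filter given above for EGR2 and EGR3.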
